A study of Mus musculus with 2 samples.

Results

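The mitochondrial solute carriers of the Slc25 family, with the uncoupling proteins that belong to the same family, were examined in liver RNA from mice labelled as lacking apolipoprotein E. A member was a gene named alone by a probe set, the group of short probes that reads a transcript, whose symbol starts with Slc25a, Slc25a20 left out, or a gene named Ucp1, Ucp2 or Ucp3. This gave 34 genes read by 66 probe sets, out of 12393 genes. The mice were female, 2 months old and homozygous for a knockout of Apoe on a C57BL/6J background. Both groups ate chow with 10% (w/w) added oil for 4 weeks: olive oil alone, or olive oil enriched in maslinic acid, a triterpene of olives. The design text gives 6 mice per diet, 12 in all, but the series holds 1 array per diet. The sources used here do not say whether mice were pooled.

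Carriers of this family are membrane proteins built from repeats of a common fold. Most sit in the inner mitochondrial membrane and exchange a metabolite of the matrix for one of the cytosol. In liver they feed the urea cycle with ornithine and aspartate, move reducing equivalents and carboxylates for gluconeogenesis and lipid synthesis, export ATP, and supply the matrix with phosphate, coenzymes and iron. The uncoupling proteins let protons return to the matrix without making ATP, Ucp1 in brown fat being the best known.

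Values are MAS5 signals as deposited, in arbitrary units on a linear scale, and the log2 ratio is maslinic acid array over olive oil array. These names stand for the arrays as labelled. Signals under a floor of 40 were set to 40 before the ratio was taken. A gene counted as measured where its brightest probe set, which stood for the gene, reached a signal of 80 on at least 1 array. Signals of different genes are not read as relative expression, since they depend on the probes, and only sort genes by brightness. With 1 array per diet no difference has a replicate check, no test was possible and no p-value is given. The nearest to an error is the spread between measured probe sets of the same gene, an SD of 0.23 in log2 ratio over 1815 genes with at least 2 of them. These repeats are technical and share the hybridisation.

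The arrays were alike over the 5911 measured genes, with a correlation across genes of r = 0.987 between their log2 signals (genes are no replicates). The targeted gene Apoe read 407.7 on the olive oil array and 7630 on the maslinic acid array. Both arrays carry the same knockout label, so the level on the second goes against it, where these probes lie in the disrupted gene is not known here, and every direction below is between arrays as labelled. All 8 hepatocyte markers on the array were measured, with summed signals of 65726 and 58602, and 7 of them were lower on the maslinic acid array (median log2 ratio -0.18). Of 11 macrophage markers 10 were measured, with summed signals of 7986 and 8361, 7 were higher and 3 lower (median 0.09), and the scavenger receptor gene Marco was the lowest at -2.00. Of the 50 genes with the highest signals, 47 were lower, with a median of -0.14. The part of these shifts in the carrier values was not tested. In bulk RNA, fewer cells of a type and less RNA per cell cannot be told apart.

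Of the 34 carrier genes, 24 were measured, and most of them differed little between the arrays. Slc25a30, a close relative of the uncoupling proteins, was the clearest exception, 1.56-fold lower on the maslinic acid array with all 3 of its measured probe sets lower. In all, 15 of the 24 measured carriers were lower on that array, against a background of 52.0% of measured genes, and 9 were higher, against 47.8%. The 15 include Slc25a5, Slc25a39, Slc25a44, Slc25a46 and Slc25a51, whose measured probe sets differ in sign. They also include Slc25a26 and Slc25a36, which passed the minimum only through the olive oil array, where they were higher. With the minimum set on the mean signal, 13 carriers were lower and 9 higher. The counts were 13 lower and 11 higher with the mean of each gene's measured probe sets, and 12 lower and 10 higher without _x_at and _s_at probe sets. Slc25a26 and Slc25a30 were at least 1.5-fold lower, where the background is 1.57%. Slc25a26 passed the minimum only through the olive oil array, where it was higher, so its place in this count is partly set by the filter. With the minimum set on the mean signal the count was 1, Slc25a30. None of the 24 was at least 1.5-fold higher (background 1.47%), and 0 were 2-fold apart in either direction (0.305% lower and 0.305% higher). The median log2 ratio was -0.10, and -0.01 over all measured genes. The log2 ratios of the carriers had an SD of 0.28, that of all measured genes 0.26. For 16 of the 24 the log2 ratio was closer to 0 than the SD between probe sets of a gene. The share of all measured genes this close to 0 was not taken, so that count has no background here.

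**Figure D1:**
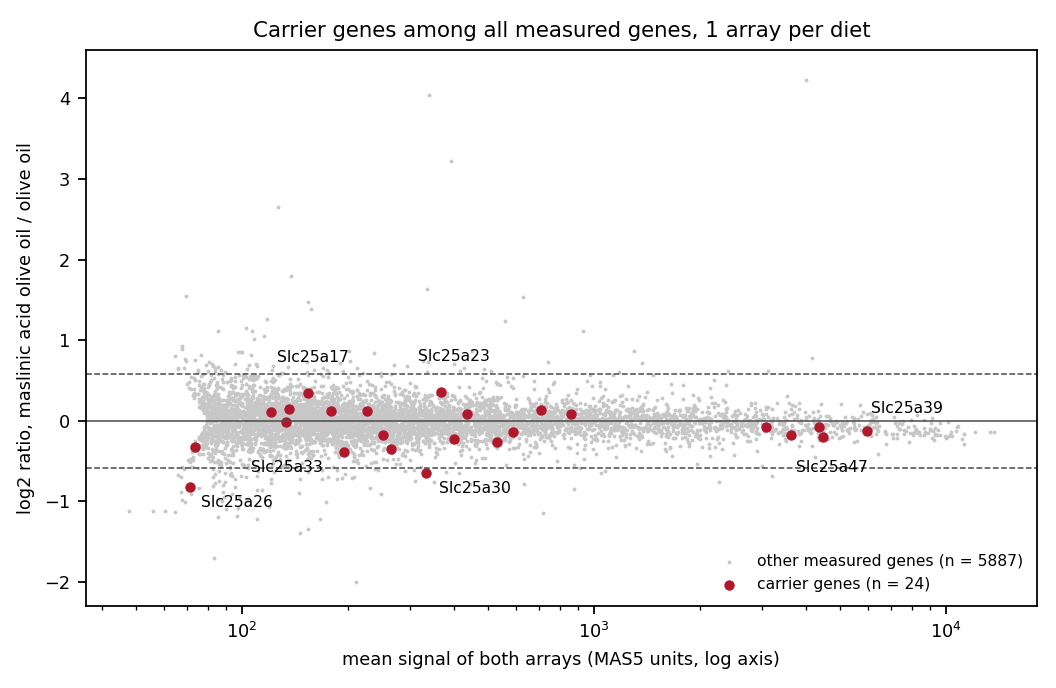
Log2 ratio of maslinic acid array over olive oil array (y axis) against the mean signal of both arrays (x axis, log scale, MAS5 units); red points are the 24 measured carrier genes, grey points the other measured genes, and dashed lines mark 1.5-fold. Slc25a26 and Slc25a30 lie below the lower line and no carrier lies above the upper one.

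Start-site sequences are shown for Slc25a30, the lowest member with several measured probe sets, and for Slc25a23, the highest measured member. Slc25a26 was lower than Slc25a30, but on 1 measured probe set. Each sequence is the 250 bases before the start of transcription, 5′ to 3′ on the gene's strand, from RefSeq on GRCm38.p6. Slc25a30 lies at chr14:75787038-75787287 on the minus strand, and Slc25a23 at chr17:57059864-57060113 on the minus strand, the outer of 2 entries for that gene. Capitals mark a CCAAT box (CCAAT) and a GC box (GGGCGG), on either strand.
Slc25a30: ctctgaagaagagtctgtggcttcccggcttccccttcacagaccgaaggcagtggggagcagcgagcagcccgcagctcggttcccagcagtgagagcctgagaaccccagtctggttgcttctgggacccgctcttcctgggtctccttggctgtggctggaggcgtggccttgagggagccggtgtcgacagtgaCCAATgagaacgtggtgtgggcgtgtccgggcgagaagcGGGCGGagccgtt
Slc25a23: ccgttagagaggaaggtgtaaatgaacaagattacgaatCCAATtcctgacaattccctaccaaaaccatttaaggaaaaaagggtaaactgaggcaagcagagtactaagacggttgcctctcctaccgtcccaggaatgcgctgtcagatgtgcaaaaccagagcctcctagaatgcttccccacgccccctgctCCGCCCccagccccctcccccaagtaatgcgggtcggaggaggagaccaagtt
Both printed windows held 1 GC box and 1 CCAAT box, the GC box of Slc25a23 on the opposite strand. The other entry of Slc25a23, not printed, held 2 GC boxes and 1 CCAAT box.

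Promoter entries were found for 27 of the 34 members, and 9 short motifs were searched on both strands of the same 250 bases. A gene with several entries counted once. The GC box was in 20 of the 27 (74.1%), against 35.4% of all 27025 genes with an entry and 45.8% of the 17491 protein-coding ones. The members' windows had a median GC content of 61.2%, against 52.4% over all and 55.6% over protein-coding genes. The CCAAT box was in 15 members (55.6%, against 37.5% of all and 39.5% of protein-coding genes). The ETS core CGGAAG was in 7 (25.9%, against 15.3% of all and 19.2% of protein-coding genes). The E-box CACGTG was in 5 (18.5%, against 6.86% of all and 7.61% of protein-coding genes). The E-box members were Slc25a13, Slc25a14, Slc25a15, Slc25a33 and Slc25a36. Of these, Slc25a13 was slightly higher on the maslinic acid array, and Slc25a15, Slc25a33 and Slc25a36 were lower, as were 52.0% of all measured genes. Slc25a36 passed the minimum only through the olive oil array, and Slc25a14 was not measured. A link between motif and direction was not tested. The cAMP response element TGACGTCA was in Slc25a25 and Slc25a36 (7.41%, against 1.77% of all and 2.20% of protein-coding genes). The TATA box TATAAA, the NRF1 core GCGCATGC, the nuclear receptor half-site AAGGTCA and the forkhead site GTAAACA were in 0 of the 27, against 14.3%, 2.56%, 4.70% and 3.54% of all. Of protein-coding genes, 13.7%, 3.32%, 4.18% and 3.04% held them. None of the motifs contains another, and a match describes the sequence only.

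Among carriers of adenine nucleotides and phosphate, 5 of the 6 genes on the array were measured. By the probe set that stands for the gene 3 were lower and 2 higher, against 52.0% and 47.8% of all measured genes. Slc25a3, which brings phosphate into the matrix for ATP synthesis, read 3846.5 on the olive oil array and 3411.6 on the maslinic acid array, a log2 ratio of -0.17. Slc25a4, the ADP/ATP exchanger typical of heart and muscle, read 116.2 and 125.7, a log2 ratio of 0.11. The calcium-regulated exchangers of ATP-magnesium for phosphate went opposite ways. Slc25a23 read 322.3 and 412.3, a log2 ratio of 0.36 and the highest of the measured carriers, and 94.8% of measured genes had a lower log2 ratio. Slc25a25 read 266.9 and 235.8, a log2 ratio of -0.18. Slc25a24, of the same kind, lay under the floor on both arrays at 16.3 and 8.8.

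Slc25a5, the ADP/ATP exchanger found in most tissues, gave different answers by probe set. Its brightest probe set read 4468.0 on the olive oil array and 4246.2 on the maslinic acid array, a log2 ratio of -0.07, and the next 3 in brightness gave -0.06, -0.03 and -0.10. The 4 dimmer ones were all higher on the maslinic acid array. They read 1007.7 and 1131.8 (log2 ratio 0.17), 599.3 and 915.9 (0.61), 629.2 and 828.0 (0.40), and 376.8 and 706.1 (0.91). The gap of 1.00 between the highest and lowest log2 ratio was wider than in 98.2% of the genes with at least 2 measured probe sets, and wider than in 95.1% of those with at least 3. Of the 8 probe sets, 6 carry the suffix _x_at, which marks probes that can also read other transcripts, and these fell on both sides. No single direction can be given for Slc25a5. Slc25a4 had 3 measured probe sets, all higher, at 0.11, 0.16 and 0.50. The dimmest of them, of the _x_at kind (74.4 and 104.9), again gave the highest ratio. It passed the minimum only through the maslinic acid array, where it was higher, so the filter partly set its direction.

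**Figure D2:**
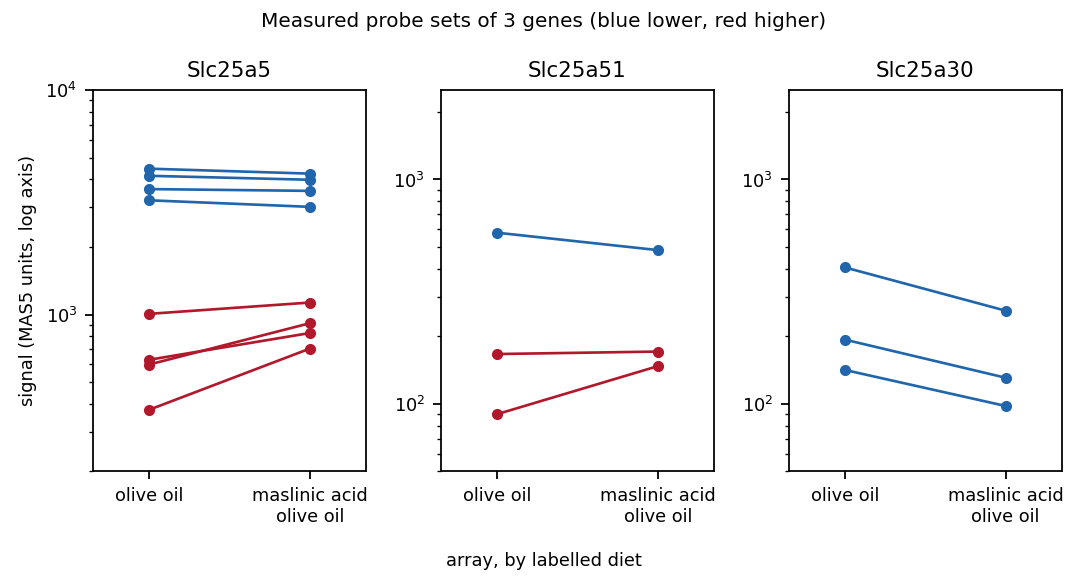
Signals (y axis, MAS5 units, log scale) of every measured probe set of Slc25a5, Slc25a51 and Slc25a30 on the 2 arrays (x axis); each line is 1 probe set, blue where it was lower and red where it was higher on the maslinic acid array. The 4 brighter probe sets of Slc25a5 lie slightly lower and the 4 dimmer ones higher, Slc25a51 splits 1 against 2, and all 3 of Slc25a30 are lower.

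Carriers of carboxylates, aspartate and glutamate stayed within 1.2-fold. Slc25a13, or citrin, the aspartate-glutamate exchanger of liver that serves the urea cycle and the malate-aspartate shuttle, read 835.6 on the olive oil array and 890.3 on the maslinic acid array, a log2 ratio of 0.09. Its partner in the shuttle, the malate-oxoglutarate exchanger Slc25a11, read 421.7 and 448.7, also a log2 ratio of 0.09. Slc25a10, which exchanges malate or succinate for phosphate, read 674.2 and 740.0, and its log2 ratios by 2 probe sets were 0.13 and 0.11. These 3 genes were thus slightly higher, each by less than the SD between probe sets of a gene. Slc25a22, a glutamate carrier, was the measured member of this group that was lower, at 432.8 and 368.9 (log2 ratio -0.23). Slc25a35, whose substrate is not well established, lay under the floor at 16.3 and 16.5.

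In the list of carriers of ornithine and other amino acids, 4 of 8 genes were measured. By the probe set that stands for the gene, 3 of the 4 were lower on the maslinic acid array, against 52.0% of all measured genes. Slc25a15 exchanges ornithine for citrulline in the urea cycle. It read 3152.8 on the olive oil array and 3002.7 on the maslinic acid array (log2 ratio -0.07), and its dimmer probe set 196.0 and 173.6 (-0.18). Slc25a47, a carrier expressed mainly in liver and only listed here with this group, read 4781.5 and 4180.4, a log2 ratio of -0.19. Its only probe set is of the _s_at kind, which can read several transcripts. Slc25a44, a carrier of branched-chain amino acids, read 296.3 and 233.5 (log2 ratio -0.34), whereas the second measured probe set read 180.2 and 192.7 (0.10). Slc25a45, listed here with the amino acid carriers, read 171.7 and 187.0 (0.12).

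The other genes of this list were dim. Slc25a38, the glycine carrier needed for haem synthesis, lay just short of the minimum at 66.5 and 78.4. Slc25a29, a carrier of basic amino acids, had 5 probe sets, none above 75.5. It is the next protein-coding gene to Slc25a47 in the gene table, and the signals of Slc25a47 were above 3000 on both arrays. The probes differ, so the levels of these genes are not compared. Slc25a2, the other ornithine carrier, read 11.7 and 9.7, and Slc25a48, only listed here with this group, at most 12.7 on either of its 2 probe sets.

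Carriers of cofactors, nucleotides and glutathione held the widest range. Of 7 measured genes 5 were lower on the maslinic acid array, against 52.0% of all measured genes. Among these 5, Slc25a26 and Slc25a36 passed the minimum only through the olive oil array, so the filter partly set their direction. Slc25a39 and Slc25a51 had measured probe sets of both signs. The group's median of -0.26 is the value of Slc25a51 by its brightest probe set. It was -0.12 with a floor of 80 or a stricter minimum, -0.10 with the mean of a gene's probe sets and -0.09 without _x_at and _s_at probe sets. Slc25a26, which brings the methyl donor S-adenosylmethionine into the matrix, had the lowest log2 ratio of the measured carriers, -0.82, at 90.8 on the olive oil array and 51.6 on the maslinic acid array. This value rests on 1 probe set close to the minimum, of the _s_at kind that can read several transcripts, since the other, at 17.4 and 20.8, lay under the floor. Among measured genes with a mean signal under 160, 3.16% were at least 1.5-fold lower. With a floor of 80 the log2 ratio of Slc25a26 was -0.18.

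The importers of pyrimidine nucleotides Slc25a33 and Slc25a36, which supply mitochondrial DNA and RNA synthesis, are described next. Slc25a33 read 221.6 and 169.2, a log2 ratio of -0.39, and 4.08% of measured genes had a lower one. Slc25a36 read 81.6 and 65.2, a log2 ratio of -0.32, but it passed the minimum only through the olive oil array. It became -0.03 with a floor of 80 and was not measured with the minimum set on the mean signal. Slc25a39, a carrier of glutathione, read 6224.7 and 5713.3 (log2 ratio -0.12), and its other measured probe sets gave -0.23 and, on the dimmest, 0.07.

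Slc25a51, the importer of NAD, split by probe set as Slc25a5 did. The brightest read 579.2 on the olive oil array and 484.4 on the maslinic acid array (log2 ratio -0.26), the next 166.8 and 171.1 (0.04), and the dimmest 90 and 147.3 (0.71). The gap of 0.97 was wider than in 94.8% of genes with at least 3 measured probe sets, so no direction is given for Slc25a51. Higher on the maslinic acid array were Slc25a17, which works in the peroxisome membrane, at 135.9 and 172.8 (0.35), and the coenzyme A carrier Slc25a42, at 217.6 and 237.1 (0.12). The second probe set of Slc25a17 lay under the floor.

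**Figure D3:**
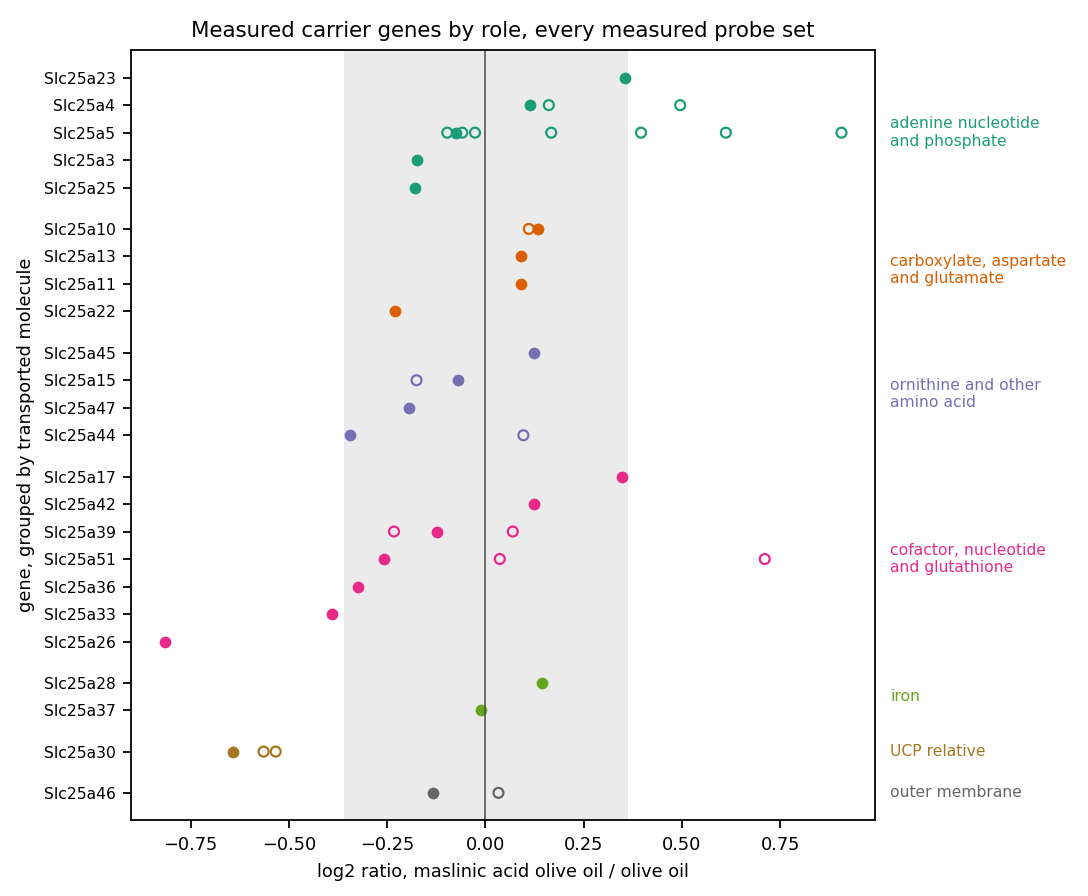
Log2 ratio of maslinic acid array over olive oil array (x axis) for the 24 measured carriers (y axis), grouped and coloured by role; filled points are the probe set that stands for the gene, open points its other measured probe sets, and the grey band spans the 5th to 95th percentile of all measured genes. Slc25a26, Slc25a30 and Slc25a33 lie below the band, and Slc25a5 and Slc25a51 are spread on both sides of 0.

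The mitoferrins, which import iron for haem and iron-sulphur clusters, were nearly level. Slc25a37, the form prominent in red cell precursors, read 133.6 on the olive oil array and 132.6 on the maslinic acid array (log2 ratio -0.01), and Slc25a28, the form of other tissues, 129.1 and 142.6 (0.14). Of the 4 erythroid markers on the array 1 was measured, Alas2 (log2 ratio 0.68), with summed signals of 124.4 and 183.5 for the list. Slc25a46, an outer membrane protein involved in mitochondrial fission, read 614.9 and 560.5 (-0.13), and 316.3 and 323.7 (0.03) by its other probe set.

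Slc25a30, also known as kidney mitochondrial carrier protein, was the measured member among the uncoupling proteins and their nearest relatives. Its brightest probe set read 405.7 on the olive oil array and 260.2 on the maslinic acid array, a log2 ratio of -0.64. The others read 193.4 and 130.8 (-0.56), on a probe set of the _s_at kind, and 141.7 and 97.9 (-0.53). A further 2 lay under the floor. All 3 measured probe sets were thus lower by similar amounts, with a gap of 0.11 between them and a mean of -0.58, just short of 1.5-fold. Of the 556 genes with at least 3 measured probe sets, 2 (0.360%) had all of them at -0.5 or lower, Slc25a30 and the heat shock gene Hspa1b, a limit chosen after the values were seen. Among measured genes with a mean signal of at least 160, as Slc25a30 had, 0.823% were at least 1.5-fold lower.

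The uncoupling proteins Ucp1 and Ucp3 did not reach the minimum. Ucp3, the form of skeletal muscle, read 23.7 and 15.4 on the brighter of its 2 probe sets. The 8 skeletal muscle markers were all under the minimum as well, with no signal above 17.6. Ucp1 read 1.0 on the olive oil array and 47.5 on the maslinic acid array, above the floor on the second but under the minimum, so no fold is given. Of the 5 adipocyte markers on the array 2 were measured, 1 higher (log2 ratio 0.43) and 1 lower (-0.28) on the maslinic acid array. The summed signals of this list were 447.3 and 518.5. Slc25a14, another relative, read 18.0 and 39.4, and Slc25a53, with no assigned substrate, 9.2 and 17.1. In all, the 10 members not measured had 16 probe sets with signals from 1.0 to 78.4. Ucp2 and 15 other family genes, among them the citrate carrier Slc25a1, the aspartate-glutamate carrier Slc25a12 and the ADP/ATP exchanger of testis Slc25a31, are not paired with a probe set in the annotation used here and were not analysed. Of 6 testis germ cell markers 1 was measured, with summed signals of 78.1 and 192.4 for the list. That gene (log2 ratio 1.27) passed the minimum only through the maslinic acid array, where it was higher.

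Slc25a5, Slc25a51, Slc25a44, Slc25a39 and Slc25a46 were the 5 of 9 members with at least 2 measured probe sets in which these differed in sign. Over all such genes 52.0% did. In 7 of the 9 the dimmest probe set had a higher log2 ratio than the brightest, the exceptions being Slc25a10 and Slc25a15, and over all such genes this was so in 53.6%. The dimmest probe set of Slc25a4 passed the minimum only through the maslinic acid array, so the filter partly set its place among the 7. The 5 carriers with signals of at least 3000 on both arrays, Slc25a3, Slc25a5, Slc25a15, Slc25a39 and Slc25a47, were all lower by the probe set that stands for the gene, with a median of -0.12. For Slc25a5 no single direction can be given. The 50 genes with the highest signals, chosen otherwise than by this limit, had 47 lower and a median of -0.14. The share of lower genes among all genes past the limit of 3000 was not taken, so the carriers have no matched background here.

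Genes that work beside the carriers were counted from lists that share no member with them. Of 21 other transporters of the mitochondrial membranes, such as pyruvate carriers, porins and sideroflexins, 13 were measured, 7 higher and 6 lower, with a median log2 ratio of 0.04. The protein import machinery had 17 measured genes, 8 higher and 9 lower (median -0.04). The enzymes on either side of the shuttles and of the urea cycle carriers also had 17, 8 higher and 9 lower (median -0.01). Of the regulators of mitochondrial biogenesis 8 were measured, 3 higher and 5 lower. Their median of -0.10 ran from -0.20 with the loess trend removed to 0.04 with the mean of probe sets. In these 4 lists 0 genes were at least 1.5-fold apart, where the background is 1.57% lower and 1.47% higher. By sign alone, 52.0% of all measured genes were lower and 47.8% higher.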

How the data were processed

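Total liver RNA was labelled as biotinylated cRNA and hybridised to 1-colour Affymetrix arrays, per the labels' protocols. The authors deposited 1 intensity per probe set and array, a MAS5 signal according to the submitters' processing notes. The sources used here give neither the MAS5 version and settings nor detection calls. Each array already had a 2% trimmed mean of 200.1, so the deposited scale was kept, and 48.4% and 48.2% of the 22690 probe sets lay under the floor. Dim MAS5 signals are less precise than bright ones, and the number of arrays limits the precision. After 64 control probe sets were left out, 20380 probe sets were paired with 1 gene by the platform annotation, 691 with several and 1606, controls included, with none. All 34 members matched by Entrez number to the table of GRCm38.p6 genes, with 0 symbols changed. The annotation names no build.

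Ratios, counts and medians were computed in Python 3.11.15 with pandas 2.3.3, and the steps were tested on simulated data. The simulated differences were 2-fold, in brighter genes only, with less noise than the spread between probe sets. That test checks the steps and not the differences in these data. Every measured member is named with both signals, and non-members only where a result turns on them. The members and lists were chosen with earlier results of these data known. The 10 alternatives were equal medians, quantile scaling, removal of a loess trend (statsmodels 0.14.6, span 0.4), floors of 20 and 80, no minimum, a minimum of 160, a minimum of 80 on the mean, the mean of a gene's measured probe sets, and omission of _x_at and _s_at probe sets.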

Additional observations from a re-analysis of the deposited data

How the results depend on the processing

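No paired analysis was possible because there is only 1 array per diet, and no array could be left out. The count of carriers at least 1.5-fold lower was 1 in place of 2 under 5 alternatives. With a floor of 80, a minimum of 160, a minimum of 80 on the mean signal, or without _x_at and _s_at probe sets it was 1, Slc25a30. With the mean of all measured probe sets it was also 1, but then Slc25a26, as Slc25a30 lay at -0.58. The median log2 ratio of the measured carriers ran from -0.12 to 0, the latter with no minimum signal, and was -0.03 with the mean of probe sets. It was -0.04 with the loess trend removed and -0.06 with quantile scaling. Slc25a26 (7 values) and Slc25a30 (10 values), the carriers at least 1.5-fold apart, stayed below 0 wherever they were measured. In all, 21 of 24 carriers kept their sign, many of them close to 0. The sign turned for Slc25a5 (0.23) and Slc25a51 (0.16) with the mean of probe sets and for Slc25a39 (0.07) without _x_at and _s_at probe sets. In 9 cases a carrier was no longer measured. With the mean of probe sets the median turned from -0.07 to 0.23 for adenine nucleotide and phosphate carriers, from -0.10 to 0.04 for biogenesis regulators and from -0.04 to 0.02 for protein import. That of other membrane transporters turned from 0.04 to -0.02 with a minimum of 160 and without _x_at and _s_at probe sets. The cofactor list ran from -0.26 to -0.09.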
